A study of Homo sapiens with 6 samples.

Results

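The genes of integrin subunits, laminin chains and collagen chains were examined in PC-9 cells, an EGFR-mutant human lung adenocarcinoma line. The cells carried a scrambled control shRNA (shScr) or 1 of 2 shRNAs against RBM10, a splicing factor gene (shRBM10#1 and shRBM10#2), and were grown in RPMI with serum and without drug. Total RNA was sequenced in 2 libraries per shRNA, 6 in all. Members were chosen by gene symbol, with earlier results of these data known. This gave 24 integrin, 12 laminin and 44 collagen genes, 80 of the 26334 gene symbols in the tables. They hold 159 of the 51398 isoforms. All libraries come from 1 cell line, and the labels do not say whether the libraries of a condition came from separate cultures, so the p-values measure the spread between these libraries, which may be technical.

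Integrins are receptors of 1 alpha and 1 beta subunit that hold cells to the extracellular matrix and signal from it. Laminins are cross-shaped proteins of an alpha, a beta and a gamma chain that build the basement membrane under epithelia, and LAMA3 and LAMB3 encode chains of the laminin that anchors epithelial cells through the integrin beta subunit ITGB4 in hemidesmosomes. Collagens are triple helices of alpha chains. Collagen IV forms the network of the basement membrane, fibrillar collagens form the fibres of connective tissue, and transmembrane collagens such as COL17A1 sit in the cell membrane. The comparisons address how the transcripts of these genes, in total and by isoform, differed between RBM10 KD and control cells.

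RBM10 itself was at 83.2 and 86.2 CPM in the shScr libraries, at 59.8 and 56.4 under shRBM10#1 and at 27.2 and 26.9 under shRBM10#2. The libraries of the 3 conditions did not overlap, and the RBM10 level was 68.6% of shScr with shRBM10#1 and 31.9% with shRBM10#2, so the depletion was deeper with shRBM10#2 (log2 FC -1.11 ± 0.070, FDR 3.65e-06, shRBM10#2 against shRBM10#1). CPM are rounded expected counts divided by the TMM-scaled library size, log2 FC are given with their SE, and FDR is the Benjamini-Hochberg adjusted p of edgeR's quasi-likelihood test over all genes or isoforms tested. Library totals were 31953729 to 37557507 expected counts, of which the members held 0.390% to 0.473%. The mean fragment length was 231 nt in shScr replicate 2 and 265 to 281 nt in the others. By TPM 41 of 50 tested members were higher in shScr replicate 2 than in replicate 1, against 30 of 50 by CPM. Among all genes tested these were 11532 of 14217 by TPM and 7172 of 14217 by CPM. TPM (expected counts divided by effective length and scaled to a fixed total) are therefore used below for levels between genes and CPM for differences between libraries. Epithelial markers were high (6 of 6 listed genes at 1 TPM or more, KRT8 at a mean of 9403 TPM), whereas 0 of 7 fibroblast and 0 of 5 leukocyte markers reached 1 TPM. Of 5 endothelial markers, PECAM1 and CDH5 reached 1 TPM, and the summed TPM of the list was 6.04 to 7.67 in shScr, 10.28 to 12.71 with shRBM10#1 and 7.32 to 7.53 with shRBM10#2. The summed epithelial list, mostly keratins, was at 22920 to 24700 TPM in shScr, 24000 to 26070 with shRBM10#1 and 20660 to 21470 with shRBM10#2. The part of these shifts in the member results was not tested, and in bulk RNA fewer cells of a type and less RNA per cell cannot be told apart.

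PC-9 cells expressed a restricted set of these genes, with integrin and laminin genes at the highest levels. Of the 80 members, 33 reached a mean of 1 TPM (11 integrins, 7 laminins and 15 collagens), 20 reached 10 TPM and 4 reached 100 TPM. ITGB1, the common partner of many alpha subunits, led with a mean of 208.6 TPM over the 6 libraries, followed by the laminin receptor subunit ITGA3 at 183.4 TPM, ITGB5, a vitronectin receptor subunit, at 141.9 TPM, and LAMB3 at 110.4 TPM. LAMA5, the main laminin alpha chain of these cells, had a mean of 99.8 TPM, and its libraries (77.1 to 126.5 TPM) overlapped those of LAMB3 (88.4 to 138.5 TPM). The median member was at 17.8 TPM among the laminins, 0.368 TPM among the integrins and 0.132 TPM among the collagens. The leading collagens were COL18A1, a basement membrane collagen whose fragment is endostatin, at 52.6 TPM and COL4A2 at 30.8 TPM. Among the other roles, the highest means were ITGA2 (23.2 TPM) for the collagen-binding alpha subunits, ITGAV (21.0 TPM) for those that bind the RGD motif, ITGAE (3.27 TPM) for the leukocyte alpha subunits, COL6A1 (16.4 TPM) for collagen VI, COL7A1 (14.5 TPM) for the anchoring fibril and short collagens, COL9A3 (6.86 TPM) for the fibril-associated collagens, COL5A1 (2.90 TPM) for the fibrillar collagens and COL13A1 (0.797 TPM) for the transmembrane collagens. Of the other fibrillar collagens, COL1A2 (0.025 TPM) and COL3A1 (0.0217 TPM) were near the detection limit, whereas COL1A1 was at 2.48 TPM. COL8A1 led the network collagens at 0.0617 TPM (0 to 8 counts per library), and ITGA4 had counts in 2 of the 6 libraries. No count was seen in any library for COL19A1, COL21A1, COL25A1, COL6A5, COL9A1 or ITGA8, and a count of 0 allows up to 3 counts, or 0.0799 to 0.0939 CPM, in a library.

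**Figure D1:**
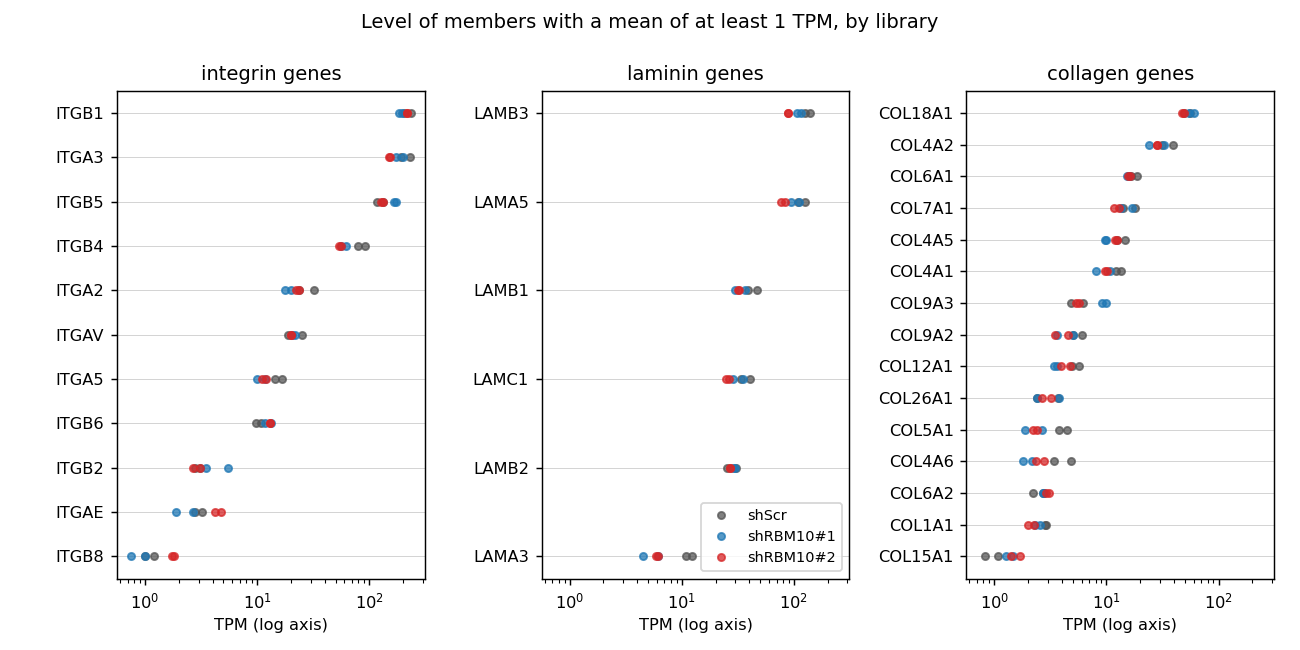
Each point is the TPM of 1 library (log axis) for 32 of the 33 members with a mean of 1 TPM or more, in 3 panels by family and coloured by shRNA, with genes ordered by their mean. ITGB1, ITGA3, ITGB5 and LAMB3 lie at 100 TPM or more on average, and most collagens lie below 20 TPM.

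After the filter on low counts, 50 members (15 integrins, 11 laminins and 24 collagens) were among the 14217 genes tested for gene totals. The other 30 members were too low to test, and a gene that passed only because it was high in 1 condition had to differ, so the counts below describe the 50 tested genes and not the families. With shRBM10#1, 6 members were higher and 14 were lower than in shScr at an FDR below 0.05, where 7.13% of all genes tested were higher and 6.91% lower. With shRBM10#2, 5 members were higher and 15 lower, against 12% and 13.9% of all genes tested. With all 4 RBM10 KD libraries as 1 group, 0 members were higher and 6 lower, against 0.542% and 1.08%. At an unadjusted p below 0.05, 4 members were higher and 13 lower in that comparison, against 8.64% and 8.6% of all genes tested, so the higher count (4 of 50) was at the background. DESeq2 called 10 members there, of 718 genes called among 14216. The lower calls thus made up 28% and 30% of the tested members with the 2 shRNAs, and the higher calls 12% and 10%. All 4 RBM10 KD libraries lay below both shScr libraries for 19 of 50 members and above them for 4, where 14.5% and 14.9% of all genes tested did so. The median log2 FC of the members was -0.11 with shRBM10#1 and -0.23 with shRBM10#2, against 0.01 for all genes in both comparisons. The laminins had medians of -0.15 and -0.48, the collagens -0.11 and -0.25 and the integrins -0.08 and -0.06. The changes were mostly modest in size: with the added criterion of an absolute log2 FC above 1, 3 members passed with shRBM10#1 and 1 with shRBM10#2, against 1.88% and 1.3% of all genes tested. Both comparisons share the shScr libraries, so each gene's values are given side by side.

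**Figure D2:**
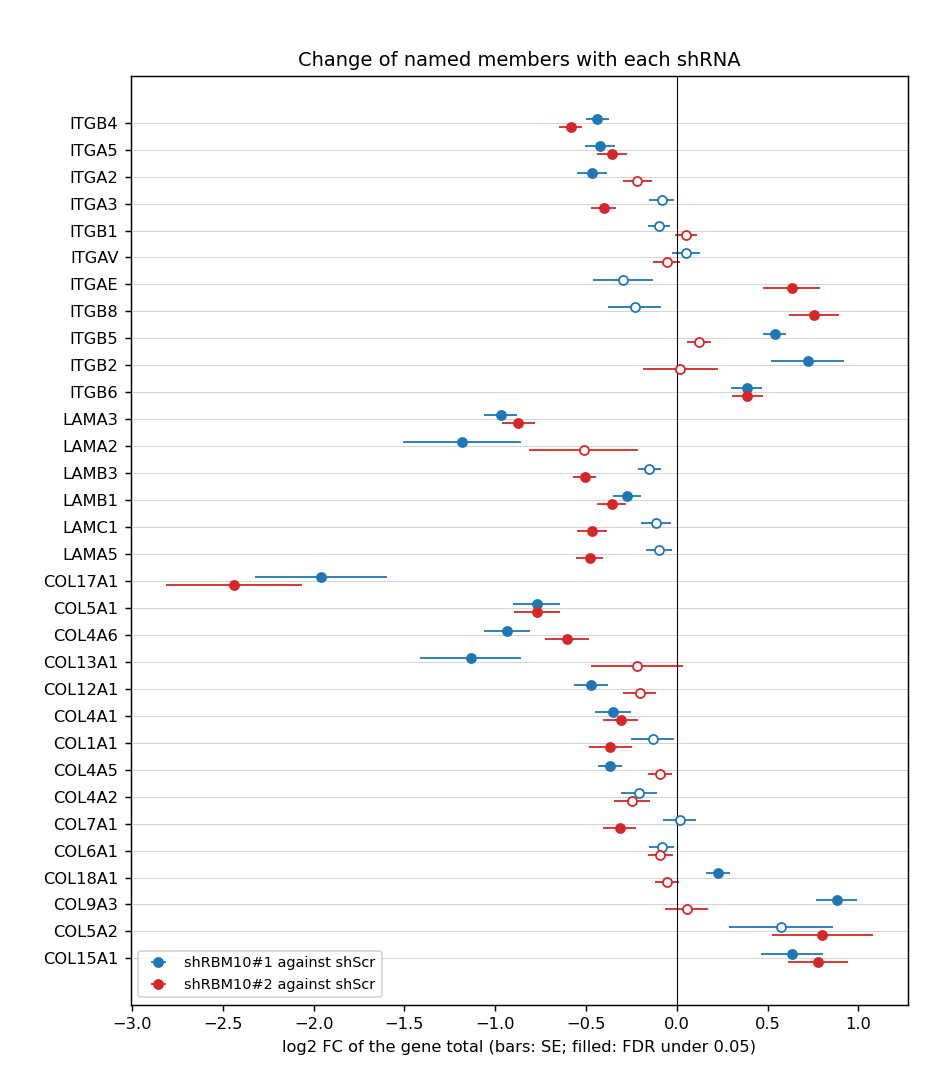
Log2 FC of the gene total with each shRNA against shScr for the 32 tested members that are named, with bars for the SE and filled points for an FDR below 0.05. COL17A1 lies farthest to the left with both shRNAs (-1.96 and -2.44), while ITGB6 and COL15A1 lie to the right with both.

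LAMA3 and LAMB3, chains of the epithelial laminin, lay below both shScr libraries in each of the 4 RBM10 KD libraries. LAMA3, the alpha chain, was at 42.01 and 42.8 CPM in the shScr libraries, at 23.98 and 19.4 under shRBM10#1 and at 23 and 23.3 under shRBM10#2. It fell to 51.04% of shScr with shRBM10#1 (log2 FC -0.97 ± 0.093, FDR 4.41e-05) and to 54.6% with shRBM10#2 (log2 FC -0.87 ± 0.092, FDR 0.000114), and the 2 shRNAs did not differ beyond their spread (log2 FC 0.10 ± 0.10, FDR 0.479). LAMA3 was thus at about the same low level in all 4 RBM10 KD libraries, although the RBM10 levels of the shRNAs differed. LAMB3, the beta chain, was at 336 and 323 CPM in the shScr libraries, at 301 and 292 under shRBM10#1 and at 231 and 232 under shRBM10#2. It did not pass the test with shRBM10#1 (log2 FC -0.15 ± 0.061, FDR 0.125) and fell to 70.3% of shScr with shRBM10#2 (log2 FC -0.51 ± 0.061, FDR 0.000265), and its level was lower with shRBM10#2 than with shRBM10#1 (log2 FC -0.36 ± 0.061, FDR 0.00163). LAMB3 is also on a list of isoforms that the study selected from these libraries, so its change here is not independent of that list.

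**Figure D3:**
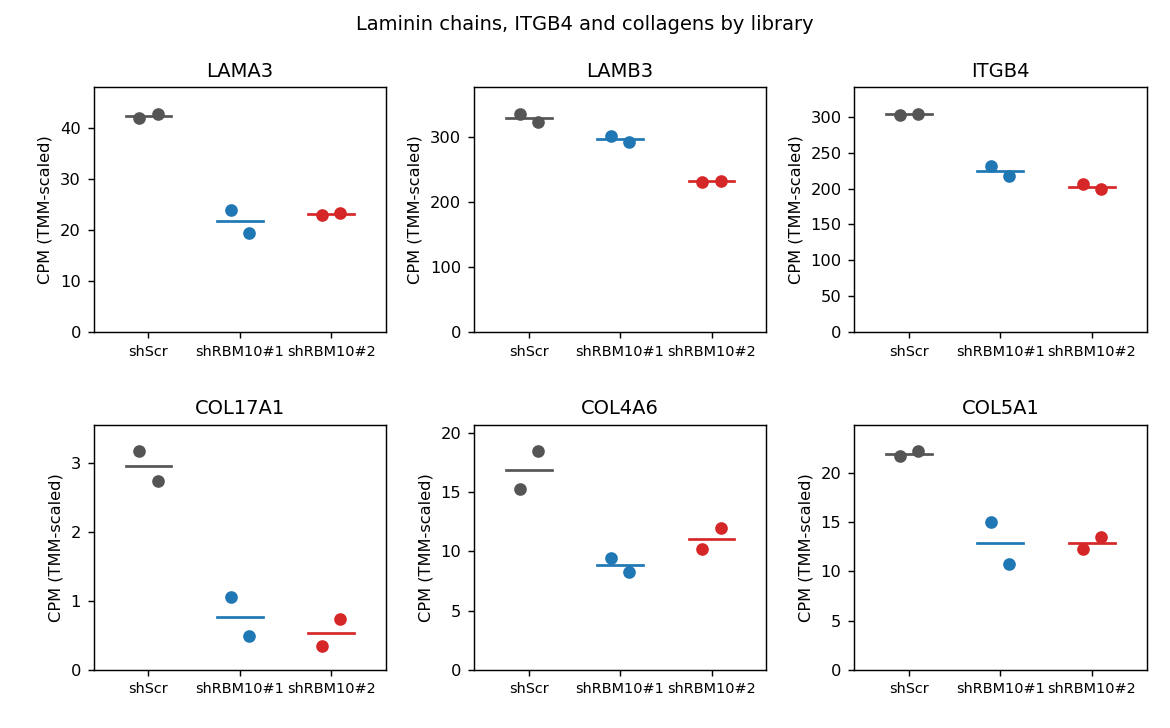
TMM-scaled CPM of LAMA3, LAMB3, ITGB4, COL17A1, COL4A6 and COL5A1, with 1 point per library, a line at the mean of the 2 libraries of a condition and each axis starting at 0. In all 6 genes the 4 RBM10 KD points lie below both shScr points.

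Of the other laminin chains, the most expressed ones were lower with shRBM10#2. LAMA5, the alpha chain of most adult epithelial basement membranes, was at 847 and 857 CPM in the shScr libraries, at 847 and 744 under shRBM10#1 and at 633 and 588 under shRBM10#2. It did not pass with shRBM10#1 (log2 FC -0.10 ± 0.073, FDR 0.415) and fell to 71.7% of shScr with shRBM10#2 (log2 FC -0.48 ± 0.074, FDR 0.000921), and the shRNAs differed (log2 FC -0.38 ± 0.074, FDR 0.00314). LAMC1, the gamma chain of most laminins, was at 182 and 186 CPM in the shScr libraries, at 186 and 154 under shRBM10#1 and at 137 and 129 under shRBM10#2. Its values were log2 FC -0.11 ± 0.082, FDR 0.392 with shRBM10#1 and log2 FC -0.47 ± 0.082, FDR 0.0019 with shRBM10#2. LAMB1, the beta chain paired with LAMC1 in many laminins, fell with both shRNAs (log2 FC -0.27 ± 0.079, FDR 0.0364, and log2 FC -0.36 ± 0.079, FDR 0.0065). In both genes the 2 libraries with shRBM10#2 lay below both shScr libraries, and the spread was wider between the libraries with shRBM10#1. LAMB2 was at 98.8 and 102.5 CPM in shScr and had log2 FC of 0.17 (FDR 0.0893) and 0.01 (FDR 0.945). LAMA2, the muscle-type alpha chain, was scarce (16 to 42 counts per library) and fell with shRBM10#1 (log2 FC -1.18 ± 0.33, FDR 0.0292). The LAMA2 call was lost without any 1 of the 6 libraries (FDR up to 0.122, without shScr replicate 2). The LAMB1 call with shRBM10#1 was lost without any 1 library but shRBM10#1 replicate 1, up to an FDR of 0.202 without shRBM10#1 replicate 2, and its call with shRBM10#2 without either shRBM10#2 library (FDR 0.0812 and 0.0617). In all, 0 of 11 tested laminins were higher with either shRNA, 4 were lower with shRBM10#1 and 6 with shRBM10#2, where 7.13% and 12% of all genes tested were higher and 6.91% and 13.9% lower.

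The promoters of 56 of the 80 members matched the RefSeq promoter table (74 windows of 300 bases, GRCh38.p14, 250 before to 50 after the start). Those of LAMB3 and LAMA3 are shown because both genes fell and have isoforms with separate starts. ITGB4 has no entry in the table. LAMB3 lies on the minus strand of chromosome 1. The window chr1:209652376-209652675 has its RefSeq start 41 bases from the GENCODE 29 start of the main isoform NM_000228, and the window chr1:209651325-209651624 has a start 1051 bases further downstream, 40 bases from that of NM_001017402. LAMA3 lies on the plus strand of chromosome 18, and its window chr18:23872770-23873069 has its RefSeq start 180 bases downstream of the GENCODE start of NM_000227, the short isoform. Capitals mark matches to the AP-1 motif TGANTCA, which reads the same on both strands and was the only motif searched. 
LAMB3 upstream start: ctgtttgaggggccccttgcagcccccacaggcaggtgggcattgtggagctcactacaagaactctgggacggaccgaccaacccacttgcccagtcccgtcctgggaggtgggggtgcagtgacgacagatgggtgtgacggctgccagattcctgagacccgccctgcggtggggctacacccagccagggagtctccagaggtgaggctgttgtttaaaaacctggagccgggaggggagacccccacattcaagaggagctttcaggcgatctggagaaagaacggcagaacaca
LAMB3 downstream start: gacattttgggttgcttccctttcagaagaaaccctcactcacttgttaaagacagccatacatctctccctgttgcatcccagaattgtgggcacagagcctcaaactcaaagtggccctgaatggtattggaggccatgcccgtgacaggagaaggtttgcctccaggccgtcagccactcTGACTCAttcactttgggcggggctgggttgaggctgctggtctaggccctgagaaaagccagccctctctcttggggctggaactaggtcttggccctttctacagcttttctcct
LAMA3: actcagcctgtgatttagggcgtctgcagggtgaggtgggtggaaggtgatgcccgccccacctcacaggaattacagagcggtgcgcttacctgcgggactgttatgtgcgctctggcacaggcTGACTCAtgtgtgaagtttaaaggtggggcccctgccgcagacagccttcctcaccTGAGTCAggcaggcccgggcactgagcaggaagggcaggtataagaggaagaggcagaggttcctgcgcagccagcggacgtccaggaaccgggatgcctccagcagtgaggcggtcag
The LAMA3 window held 2 matches, whose first bases lie 125 and 69 bases before the RefSeq start. Both lie downstream of the GENCODE start of NM_000227, which is 180 bases upstream of the RefSeq start. The downstream LAMB3 window held 1 match, at 67 bases before its RefSeq start, and the upstream LAMB3 window none. The motif was found in 4 of the 74 member windows (5.41%) and in 2707 of the 35116 windows of all genes (7.71%). A match is a description of the letters, and no binding was measured.

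Among the integrin beta subunits, ITGB4 fell, ITGB5, ITGB6, ITGB2 and ITGB8 were higher with 1 or both shRNAs, and the abundant ITGB1 did not pass the test. ITGB4, the laminin-binding beta subunit of the hemidesmosome, was at 302 and 304 CPM in the shScr libraries, at 231 and 217 under shRBM10#1 and at 206 and 199 under shRBM10#2. It fell to 73.9% of shScr with shRBM10#1 (log2 FC -0.44 ± 0.063, FDR 0.000633) and to 66.7% with shRBM10#2 (log2 FC -0.58 ± 0.063, FDR 0.000128). All 4 RBM10 KD libraries lay well below both shScr libraries, which were nearly equal. ITGB1 was at 511 and 514 CPM in the shScr libraries, at 486 and 473 under shRBM10#1 and at 531 and 532 under shRBM10#2, with log2 FC -0.10 ± 0.060, FDR 0.325 for shRBM10#1 and log2 FC 0.05 ± 0.060, FDR 0.563 for shRBM10#2. ITGB6, the epithelial partner of ITGAV that activates latent TGF-beta, rose with both shRNAs (log2 FC 0.39 ± 0.086, FDR 0.0104, and log2 FC 0.39 ± 0.086, FDR 0.00632). All 4 RBM10 KD libraries were above both shScr libraries for ITGB6 (28.8 and 29.9 CPM in shScr, 35.0 to 41.5 CPM with RBM10 KD). Its call with shRBM10#1 was lost without shRBM10#1 replicate 2 (FDR 0.0819) or shScr replicate 2 (FDR 0.0784), and its call with shRBM10#2 without either shRBM10#2 library (FDR 0.0513 and 0.0673).

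ITGB5 was at 337 and 336 CPM in the shScr libraries, at 472 and 506 under shRBM10#1 and at 374 and 359 under shRBM10#2. It rose to 145% of shScr with shRBM10#1 (log2 FC 0.54 ± 0.064, FDR 0.000177) but did not pass with shRBM10#2 (log2 FC 0.12 ± 0.064, FDR 0.182), and the difference between the shRNAs itself passed (log2 FC -0.42 ± 0.064, FDR 0.000885). ITGB8, another beta subunit paired with ITGAV, was at 5.97 and 6.198 CPM in the shScr libraries, at 5.88 and 4.53 under shRBM10#1 and at 10.5 and 10.1 under shRBM10#2. It rose with shRBM10#2 (log2 FC 0.76 ± 0.14, FDR 0.00215), had a log2 FC of -0.23 with shRBM10#1 (FDR 0.324), and differed between the shRNAs (log2 FC 0.99 ± 0.14, FDR 0.000524). ITGB5 and ITGB8 thus had their high values with different shRNAs. ITGB2, the beta subunit of leukocyte integrins, was at 5.27 and 5.104 CPM in the shScr libraries, at 6.39 and 10.6 under shRBM10#1 and at 4.87 and 5.64 under shRBM10#2. Its rise with shRBM10#1 (log2 FC 0.72 ± 0.20, FDR 0.0298) rested on 1 high library: without shRBM10#1 replicate 2 the log2 FC was 0.30 (FDR 0.306), and the call was also lost without either shScr library (FDR 0.11 and 0.157). The leukocyte marker list stayed at 0.40 to 0.42 summed TPM in both shRBM10#1 libraries, against 0.33 to 0.89 in shScr.

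Of the alpha subunits, ITGA2, ITGA3 and ITGA5 were lower with 1 or both shRNAs and ITGAE was higher with shRBM10#2. ITGA3 was at 636 and 674 CPM in the shScr libraries, at 650 and 588 under shRBM10#1 and at 491 and 501 under shRBM10#2. It had a log2 FC of -0.08 with shRBM10#1 (FDR 0.471) and fell with shRBM10#2 (log2 FC -0.40 ± 0.069, FDR 0.00169), and the shRNAs differed (log2 FC -0.32 ± 0.069, FDR 0.00547). Both libraries with shRBM10#2 lay below the other 4. ITGA2, the collagen and laminin receptor subunit, was at 127 and 149 CPM in the shScr libraries, at 104 and 95.1 under shRBM10#1 and at 123 and 114 under shRBM10#2. It fell with shRBM10#1 (log2 FC -0.47 ± 0.082, FDR 0.00235) and did not pass with shRBM10#2 (log2 FC -0.22 ± 0.081, FDR 0.0671). ITGA5, the fibronectin receptor subunit, fell with both shRNAs (log2 FC -0.42 ± 0.082, FDR 0.00437, and log2 FC -0.36 ± 0.081, FDR 0.00756), and its second call was lost without shRBM10#2 replicate 1 (FDR 0.114). All RBM10 KD libraries lay below both shScr libraries for ITGA2 and ITGA5. ITGAV was at 89.0 and 103.5 CPM in shScr and had log2 FC of 0.05 (FDR 0.711) and -0.06 (FDR 0.632). ITGAE, the partner of ITGB7 on intraepithelial lymphocytes, was at 7.12 and 7.14 CPM in the shScr libraries, at 4.67 and 6.87 under shRBM10#1 and at 10.3 and 11.8 under shRBM10#2. It rose with shRBM10#2 (log2 FC 0.63 ± 0.15, FDR 0.0111), with log2 FC -0.30 ± 0.17, FDR 0.268 for shRBM10#1, and differed between the shRNAs (log2 FC 0.93 ± 0.16, FDR 0.00157). The call against shScr was lost without either shScr library (FDR 0.0662 and 0.0609) or without shRBM10#2 replicate 2 (FDR 0.121). The leukocyte marker list was at 0.81 to 0.86 summed TPM with shRBM10#2, within its range of 0.33 to 0.89 in shScr. CD14 was at 0.69 and 0.75 TPM with shRBM10#2 and at 0.72 and 0.27 TPM in shScr. PTPRC was at 0.05 and 0.04 TPM and CD3E at 0.1 and 0 TPM with shRBM10#2. The part of this list in the ITGAE value was not tested.

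**Figure D4:**
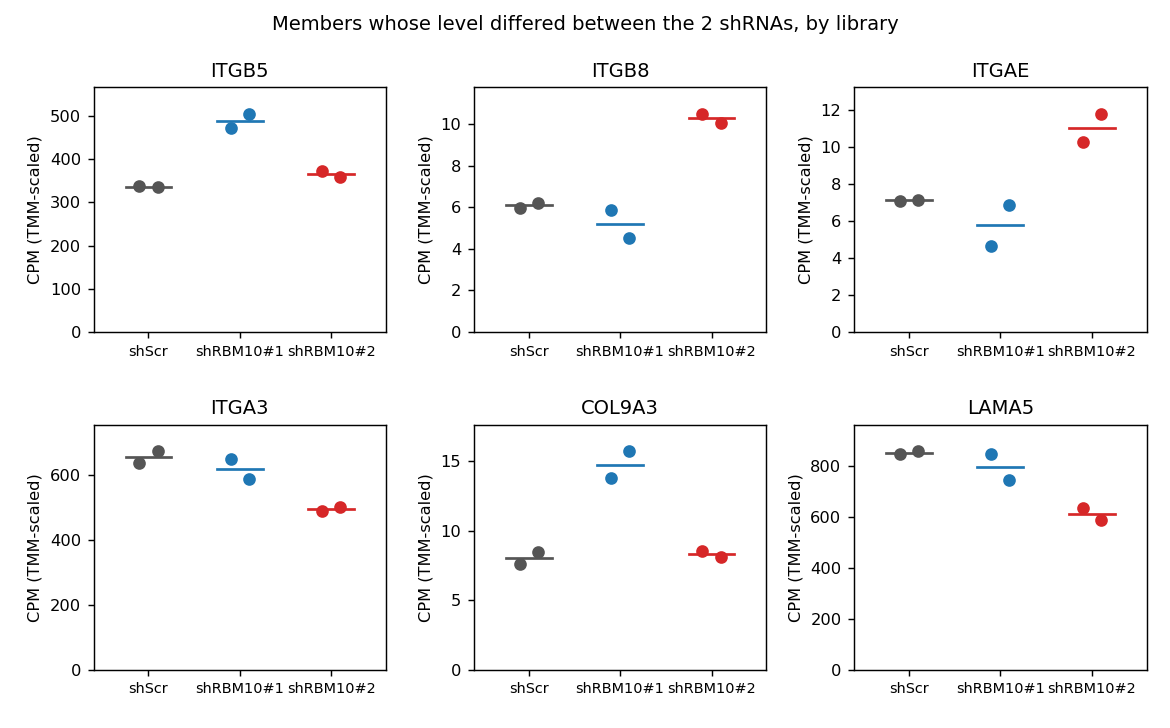
TMM-scaled CPM of ITGB5, ITGB8, ITGAE, ITGA3, COL9A3 and LAMA5, members whose level differed between the 2 shRNAs, with 1 point per library, a line at the mean of each condition and axes from 0. ITGB5 and COL9A3 stand out with shRBM10#1, and ITGB8, ITGAE, ITGA3 and LAMA5 with shRBM10#2.

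COL17A1, the transmembrane collagen of the hemidesmosome, had the largest change of the tested members whose calls passed. It was scarce, with 103 and 90 counts in shScr, 33 and 18 with shRBM10#1, and 13 and 28 with shRBM10#2, or 3.17 and 2.73 CPM in the shScr libraries, at 1.05 and 0.489 under shRBM10#1 and at 0.3501 and 0.731 under shRBM10#2. It fell to 25.7% of shScr (log2 FC -1.96 ± 0.36, FDR 0.00336) and to 18.5% (log2 FC -2.44 ± 0.37, FDR 0.000927). Both calls passed in every alternative in which they were fitted, including those that left out 1 library. COL13A1, the other tested transmembrane collagen, was at 1.79 and 1.91 CPM in the shScr libraries, at 0.959 and 0.733 under shRBM10#1 and at 1.51 and 1.67 under shRBM10#2 and fell with shRBM10#1 (log2 FC -1.14 ± 0.28, FDR 0.0165), with log2 FC -0.22 ± 0.25, FDR 0.566 for shRBM10#2. The COL13A1 call was lost without shRBM10#1 replicate 2 (FDR 0.106) or either shScr library (FDR 0.0536 and 0.0904). COL7A1, the collagen of the anchoring fibrils below the hemidesmosome, was at 88.3 and 97.4 CPM in the shScr libraries, at 103 and 84.96 under shRBM10#1 and at 70.98 and 78.4 under shRBM10#2. It did not pass with shRBM10#1 (log2 FC 0.02 ± 0.091, FDR 0.934) and fell with shRBM10#2 (log2 FC -0.31 ± 0.091, FDR 0.0248), a call lost without either shRBM10#2 library (FDR 0.225 and 0.0732) or shScr replicate 2 (FDR 0.164).

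Of the 6 collagen IV genes, all tested, 0 were higher with either shRNA, 3 were lower with shRBM10#1 and 2 with shRBM10#2. Of all genes tested, 6.91% and 13.9% were lower and 7.13% and 12% higher, so with 6 genes the counts with shRBM10#2 were not far from the background. COL4A6 was at 15.3 and 18.5 CPM in the shScr libraries, at 9.43 and 8.28 under shRBM10#1 and at 10.2 and 11.96 under shRBM10#2. It fell with shRBM10#1 (log2 FC -0.93 ± 0.13, FDR 0.000412) and shRBM10#2 (log2 FC -0.61 ± 0.12, FDR 0.00397), and the second call was lost without shRBM10#2 replicate 1 (FDR 0.0625). COL4A5, its head-to-head neighbour on the X chromosome, was at 54.9 and 55.3 CPM in the shScr libraries, at 42.5 and 42.97 under shRBM10#1 and at 50.9 and 52.6 under shRBM10#2. It fell with shRBM10#1 (log2 FC -0.37 ± 0.067, FDR 0.00298), did not pass with shRBM10#2 (log2 FC -0.09 ± 0.066, FDR 0.346), and differed between the shRNAs (log2 FC 0.28 ± 0.067, FDR 0.0097). COL4A1 fell with both shRNAs (log2 FC -0.35 ± 0.10, FDR 0.0307, and log2 FC -0.31 ± 0.10, FDR 0.0335), while its neighbour COL4A2, at 132.1 and 143.7 CPM in shScr, had log2 FC of -0.21 (FDR 0.199) and -0.25 (FDR 0.0907). The COL4A1 call with shRBM10#1 was lost without any 1 library but shRBM10#1 replicate 1 (FDR up to 0.198, without shRBM10#1 replicate 2), and with shRBM10#2 without either shScr or either shRBM10#2 library (FDR up to 0.187, without shRBM10#2 replicate 1).

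The windows at the COL4A6 and COL4A5 starts are shown because the genes are transcribed away from a shared stretch, and that of COL17A1 because it fell farthest. COL4A6 lies on the minus strand (chrX:108439409-108439708, the start of NM_001847) and COL4A5 on the plus strand (chrX:108439588-108439887), with 380 bases between the starts and 121 bases in both windows. COL17A1 lies on the minus strand of chromosome 10 (chr10:104085831-104086130), with its GENCODE start at the same base. Each is written 5′ to 3′ on the strand of its gene. 
COL4A6: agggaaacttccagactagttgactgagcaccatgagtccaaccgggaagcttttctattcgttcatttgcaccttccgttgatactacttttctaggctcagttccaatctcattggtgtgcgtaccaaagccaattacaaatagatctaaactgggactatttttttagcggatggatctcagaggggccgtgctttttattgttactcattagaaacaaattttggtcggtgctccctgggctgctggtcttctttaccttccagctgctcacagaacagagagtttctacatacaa
COL4A5: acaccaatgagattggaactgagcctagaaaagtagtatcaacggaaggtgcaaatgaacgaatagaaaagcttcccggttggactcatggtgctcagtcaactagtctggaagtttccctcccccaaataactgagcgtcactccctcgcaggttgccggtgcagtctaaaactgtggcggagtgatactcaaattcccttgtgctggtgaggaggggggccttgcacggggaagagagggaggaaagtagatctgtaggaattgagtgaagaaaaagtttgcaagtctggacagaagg
COL17A1: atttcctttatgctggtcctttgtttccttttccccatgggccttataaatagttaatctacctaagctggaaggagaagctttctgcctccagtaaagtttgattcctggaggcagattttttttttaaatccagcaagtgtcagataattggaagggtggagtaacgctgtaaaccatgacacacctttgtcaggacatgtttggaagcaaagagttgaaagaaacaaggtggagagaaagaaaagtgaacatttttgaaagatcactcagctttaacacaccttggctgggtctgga
None of these windows holds the motif TGANTCA, so no letters are in capitals.

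Of the fibrillar collagens, 5 of 11 were tested. COL5A1, a minor chain that sets the width of collagen I fibres, was at 21.7 and 22.2 CPM in the shScr libraries, at 15.02 and 10.8 under shRBM10#1 and at 12.3 and 13.5 under shRBM10#2. It fell to 58.5% of shScr (log2 FC -0.77 ± 0.13, FDR 0.0017) and 58.7% (log2 FC -0.77 ± 0.13, FDR 0.00142). All 4 RBM10 KD libraries lay below both shScr libraries. Its partner chain COL5A2 was scarce (28 to 68 counts) and higher with shRBM10#2 (log2 FC 0.80 ± 0.28, FDR 0.0493), with log2 FC 0.57 ± 0.28, FDR 0.208 for shRBM10#1. That COL5A2 call was lost without any 1 of the shScr or shRBM10#2 libraries (FDR up to 0.226) and in DESeq2 (FDR 0.125). COL1A1 was at 11.3 and 9.90 CPM in shScr and fell with shRBM10#2 (log2 FC -0.37 ± 0.12, FDR 0.0403), a call lost without shScr replicate 1 (FDR 0.232) or either shRBM10#2 library (FDR 0.3 and 0.0938). Among the fibril-associated collagens, COL9A3, a cartilage chain, was at 7.58 and 8.48 CPM in the shScr libraries, at 13.8 and 15.7 under shRBM10#1 and at 8.54 and 8.14 under shRBM10#2. It rose with shRBM10#1 (log2 FC 0.88 ± 0.11, FDR 0.000329), had log2 FC 0.05 ± 0.12, FDR 0.772 for shRBM10#2, and differed between the shRNAs (log2 FC -0.83 ± 0.11, FDR 0.000483). COL12A1 fell with shRBM10#1 (log2 FC -0.47 ± 0.093, FDR 0.00492), with log2 FC -0.20 ± 0.091, FDR 0.122 for shRBM10#2.

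The 2 multiplexin collagens of basement membranes were higher with shRBM10#1. COL15A1 was at 2.99 and 3.37 CPM in the shScr libraries, at 4.51 and 5.35 under shRBM10#1 and at 5.897 and 5.01 under shRBM10#2. It rose with both shRNAs (log2 FC 0.63 ± 0.17, FDR 0.0256, and log2 FC 0.78 ± 0.17, FDR 0.0055), and all 4 RBM10 KD libraries lay above both shScr libraries. The call with shRBM10#1 was lost without either shScr library (FDR 0.118 and 0.073), without shRBM10#1 replicate 2 (FDR 0.151) and in DESeq2 (FDR 0.0522), and that with shRBM10#2 without shRBM10#2 replicate 1 (FDR 0.0704). COL18A1 was at 176 and 176 CPM in the shScr libraries, at 213 and 200 under shRBM10#1 and at 165 and 175 under shRBM10#2, with log2 FC 0.23 ± 0.065, FDR 0.033 for shRBM10#1 and log2 FC -0.05 ± 0.065, FDR 0.584 for shRBM10#2. The COL18A1 call with shRBM10#1 was lost without any 1 library but shRBM10#1 replicate 2 (FDR up to 0.119, without shScr replicate 2). COL15A1 and COL18A1 are also made by endothelial cells, whose summed marker list was higher with shRBM10#1, mostly through CDH5 (4.65 and 6.16 TPM in shScr, 8.45 and 10.9 TPM with shRBM10#1). PECAM1 was at 1.16 and 1.25 TPM in shScr and 1.63 and 1.64 TPM with shRBM10#1, VWF at 0.21 and 0.24 TPM against 0.2 and 0.16 TPM, and KDR and TEK at 0 to 0.02 TPM in all libraries. The part of these markers in the values of COL15A1 and COL18A1 was not tested. COL6A1 was at 46.3 and 45.0 CPM in shScr and had log2 FC of -0.08 (FDR 0.456) and -0.09 (FDR 0.357).

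The members were then compared between the 2 shRNAs, a test that does not use the shScr libraries as a reference. With shRBM10#2 against shRBM10#1, 5 members were higher and 10 lower, against 11% and 14.5% of all genes tested, so the member counts were close to the background. Among the called members, the largest differences were those of ITGB8 (198% of the shRBM10#1 level), ITGAE (190%) and COL13A1 (189%), which were higher with shRBM10#2, and COL9A3 (56.4%) and ITGB2 (61.6%), which were lower. Of the 11 tested laminins, 0 were higher and 4 lower with shRBM10#2 than with shRBM10#1, LAMA5, LAMB3 and LAMC1 among them. The calls of LAMA5 and LAMC1 were lost without shRBM10#2 replicate 2 (FDR 0.0849 and 0.125). Of the others, those of ITGA3, COL18A1, COL4A5, ITGB2, COL13A1, ITGA2 and COL7A1 were lost without either shRBM10#2 library. The last 4 were also lost without 1 shRBM10#1 library: replicate 2, but replicate 1 for COL7A1. The summed epithelial marker list, which is carried by KRT8, KRT18 and KRT19, was also lower with shRBM10#2, whereas EPCAM was at 454.93 and 444.09 TPM with shRBM10#2 against 387.73 and 409.95 TPM with shRBM10#1, and CDH1 and CLDN7 overlapped between the shRNAs. The part of these markers in the member values was not tested.

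With the 4 RBM10 KD libraries pooled, 6 members fell, among them LAMA3 (log2 FC -0.92 ± 0.10, FDR 0.00563), ITGB4 (log2 FC -0.51 ± 0.081, FDR 0.0242), COL17A1 (log2 FC -2.18 ± 0.35, FDR 0.0242), COL5A1 (log2 FC -0.77 ± 0.13, FDR 0.027) and COL4A6 (log2 FC -0.76 ± 0.15, FDR 0.0456). The named ones are a chain of the epithelial laminin (LAMA3), its receptor subunit and a collagen of the hemidesmosome (ITGB4 and COL17A1), a collagen IV chain and a collagen V chain. LAMB3 did not pass (log2 FC -0.32 ± 0.12, FDR 0.227), nor did RBM10 itself (log2 FC -0.99 ± 0.31, FDR 0.146), and the pooled fit counts a difference between the shRNAs as spread. When either shScr library was left out, the pooled calls were lost, for the members and for all other genes tested. The log2 FC of LAMA3 was then -0.93 without shScr replicate 1 and -0.91 without replicate 2. That of COL4A6 was -0.89 and -0.62. Without shRBM10#1 replicate 2, 2 members, LAMA3 and COL5A1, were called, of 90 genes called among 14476. COL4A6 was also lost without replicate 1 of shRBM10#1 (FDR 0.0542) or of shRBM10#2 (FDR 0.0565).

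Member isoforms were tested next, 79 of the 159 having passed the filter among 26464 isoforms in all. By the study's criteria for isoforms (FDR below 0.05 and an absolute log2 FC above 1), 0 member isoforms were called with shRBM10#1, with shRBM10#2, between the shRNAs or in the pooled comparison, where 0.0227%, 0.491%, 0.359% and 0% of all isoforms were called. At an unadjusted p below 0.05 the counts were 25, 22, 16 and 18 of the 79 isoforms, or 31.6%, 27.8%, 20.3% and 22.8%, against 14.5%, 21.5%, 20.3% and 10.9% of all isoforms tested, so the count between the shRNAs was at the background. DESeq2 called 3, 4 and 4 member isoforms with shRBM10#1, with shRBM10#2 and in the pooled comparison, of 529, 810 and 270 isoforms called in all. By the FDR alone, 4 member isoforms (5.06% of those tested) were lower with shRBM10#2, against 1.48% of all isoforms tested. Among them were the main isoforms of LAMB3 (NM_000228, log2 FC -0.62 ± 0.059, FDR 0.0377), LAMA3 (NM_000227, log2 FC -0.97 ± 0.15, FDR 0.0488) and ITGB4 (NM_001005731, log2 FC -0.55 ± 0.051, FDR 0.0377). These isoforms belong to genes whose totals were lower. LAMA3 has a short isoform that makes the chain of the hemidesmosomal laminin, NM_000227, at 37.4 and 37.6 CPM in the shScr libraries, 20.4 and 15.2 CPM under shRBM10#1 and 18.9 and 19.4 CPM under shRBM10#2. The long isoform NM_198129, which starts further upstream, was at 4.32 and 5.096 CPM in the shScr libraries, 3.32 and 4.26 CPM under shRBM10#1 and 3.995 and 3.53 CPM under shRBM10#2 (log2 FC -0.31 ± 0.23, FDR 0.613 for shRBM10#1, and log2 FC -0.32 ± 0.23, FDR 0.499 for shRBM10#2). The short isoform was lower in all 4 RBM10 KD libraries, but the share of the 2 isoforms was not called as different (edgeR usage test, FDR 1 with each shRNA).

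Isoform usage (how a gene's reads divide among its isoforms) could be tested in 19 members among 6405 genes. LAMB3 was the 1 member called with shRBM10#2 (FDR 0.0489 in edgeR's usage test), 0 were called with shRBM10#1 and 0 between the shRNAs, where 2.75%, 0.172% and 1.92% of all genes tested were called. At an unadjusted p below 0.05, 1 member each passed with shRBM10#1 and between the shRNAs, against 6.17% and 8.68% of all genes tested, and limma's diffSplice called 0 in both. The main isoform NM_000228 was at 303 and 288 CPM in the shScr libraries, 266 and 248 CPM under shRBM10#1 and 195 and 188 CPM under shRBM10#2. NM_001017402 was at 33.3 and 34.5 CPM in the shScr libraries, 34.1 and 44.7 CPM under shRBM10#1 and 35.9 and 44.5 CPM under shRBM10#2, and it was not called (log2 FC 0.22 ± 0.16, FDR 0.615 for shRBM10#1, and log2 FC 0.25 ± 0.16, FDR 0.463 for shRBM10#2). Its share of LAMB3 by TPM was 9.34 and 10.1% in the shScr libraries, 10.8 and 14.5% under shRBM10#1 and 14.7 and 18.2% under shRBM10#2. The main isoform was thus lowest under shRBM10#2. NM_001017402 lay above both shScr values in both shRBM10#2 libraries, in 1 of them only slightly (35.9 CPM), and overlapped the shScr values under shRBM10#1. The shares of both shRBM10#2 libraries lay above all others, the nearest being shRBM10#1 replicate 2. The 2 isoforms have the same 22 coding exons in GENCODE 29 and differ in their start and leading exons, so the quantification of their shares rests on reads near the 5′ end, at the 2 starts printed above. The LAMB3 usage call was lost without any 1 shScr or shRBM10#2 library (FDR 0.134 to 0.427), and passed in limma's diffSplice (FDR 0.0122). The third listed isoform of LAMB3, NM_001127641, had 0 counts in all libraries.

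**Figure D5:**
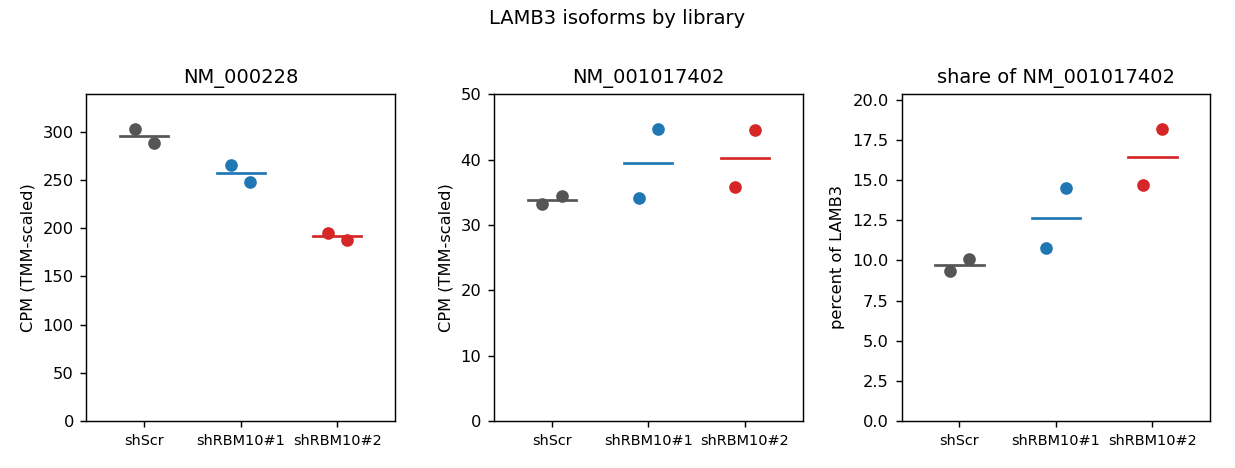
LAMB3 isoforms by library, with 1 point per library and a line at the mean of each condition: TMM-scaled CPM of NM_000228 (left) and NM_001017402 (middle), and the share of NM_001017402 in percent of LAMB3 by TPM (right), with axes from 0. NM_000228 steps down from shScr to shRBM10#2, and the share of NM_001017402 is 9.34% and 10.1% in shScr and 14.7% and 18.2% with shRBM10#2.

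With shRBM10#1 and between the shRNAs, ITGB1 had the smallest usage p among the members (FDR 0.721 with shRBM10#1 and 0.331 between the shRNAs in edgeR's usage test). The share of the minor ITGB1 isoform NM_133376 was 8.36 and 13.6% in the shScr libraries, 6.85 and 8.22% under shRBM10#1 and 11.6 and 11.6% under shRBM10#2, and it varied as much between the shScr libraries as between conditions. Without shScr replicate 1, ITGB1 was called with shRBM10#1 and between the shRNAs, and in the latter also without shScr replicate 2. ITGB4 is shown because its isoforms differ in a coding exon, the kind of event a splicing factor can act on. NM_000213 holds a coding exon of 210 nt (chr17:75753765-75753974, GRCh38, plus strand, exon 33 of 40 in GENCODE 29) that the main isoform NM_001005731 lacks, a stretch of 70 codons that keeps the reading frame. 
ITGB4 exon: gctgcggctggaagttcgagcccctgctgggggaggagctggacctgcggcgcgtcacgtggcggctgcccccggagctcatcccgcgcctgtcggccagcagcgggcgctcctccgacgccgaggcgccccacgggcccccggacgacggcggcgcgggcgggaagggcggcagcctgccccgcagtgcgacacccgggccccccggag
It is printed in lower case without a marked part. The share of NM_000213 was 4.21 and 4.29% in the shScr libraries, 5.59 and 4.45% under shRBM10#1 and 3.25 and 3% under shRBM10#2. It was lowest in both shRBM10#2 libraries, but the usage of ITGB4 did not pass (FDR 0.675 with shRBM10#2, edgeR's usage test). The smallest p within ITGB4 in that test was that of another isoform, NM_001005619 (unadjusted p 0.0306). NM_001005619 was at 4.64 CPM in shScr replicate 2, 2.58 CPM in shRBM10#1 replicate 2 and 0 CPM in the other libraries. NM_000213, which holds the exon, had an unadjusted p of 0.522 in the same test. For COL4A6, whose isoforms have 2 starts, the share of NM_001847 was 86.6 and 84.1% in the shScr libraries, 100 and 75.1% under shRBM10#1 and 57.1 and 61.95% under shRBM10#2, and usage did not pass (FDR 1 with shRBM10#2, edgeR's usage test). These shares come from 295 to 608 counts per library for the whole gene, and NM_033641 went from 0 to 1.71 CPM between the libraries of shRBM10#1.

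Genes that work with these members were described from a list of 87 adhesion and matrix genes, of which 86 were in the tables and 78 were tested. The list was chosen with earlier results of these data known, so its counts are a description and not an independent test. With shRBM10#1, 9 were higher and 18 lower, with shRBM10#2, 5 and 29, between the shRNAs 9 and 19, and in the pooled comparison 1 and 5. Of all genes tested, 7.13% were higher and 6.91% lower with shRBM10#1, 12% and 13.9% with shRBM10#2, 11% and 14.5% between the shRNAs and 0.542% and 1.08% in the pooled comparison, and the counts of the groups below, which are small, are to be read against these shares. Among the integrin activators and adaptors (25 of 25 tested), 2 were higher and 8 lower with shRBM10#1, and 1 and 13 with shRBM10#2. FLNA, a filamin that cross-links actin and binds integrin tails, was at 2520 and 2625 CPM in the shScr libraries, at 2008 and 1450 under shRBM10#1 and at 1539 and 1543 under shRBM10#2. It fell with shRBM10#1 (log2 FC -0.57 ± 0.11, FDR 0.00444) and shRBM10#2 (log2 FC -0.74 ± 0.11, FDR 0.00083). FERMT1, the epithelial kindlin that activates integrins, fell with shRBM10#1 (log2 FC -0.63 ± 0.082, FDR 0.000329) and shRBM10#2 (log2 FC -0.36 ± 0.081, FDR 0.0068), whereas TNS1, a tensin, rose with shRBM10#1 (log2 FC 0.88 ± 0.10, FDR 0.000149) and had log2 FC 0.02 ± 0.10, FDR 0.896 for shRBM10#2.

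Of the hemidesmosome and tetraspanin partners (7 tested), 1 was higher and 3 lower with shRBM10#1, and 0 and 3 with shRBM10#2. PLEC, the plectin that ties ITGB4 to keratin, was at 612 and 660 CPM in the shScr libraries, at 458 and 390 under shRBM10#1 and at 354 and 326 under shRBM10#2. It fell to 66.7% of shScr (log2 FC -0.59 ± 0.082, FDR 0.000544) and 53.5% (log2 FC -0.90 ± 0.083, FDR 6.25e-05), in the same direction as ITGB4, LAMA3 and COL17A1 above. CD82, a tetraspanin, rose with shRBM10#1 (log2 FC 1.22 ± 0.14, FDR 0.000176), with log2 FC 0.38 ± 0.15, FDR 0.0752 for shRBM10#2. Of 6 tested other matrix receptors, 2 were higher and 0 lower with shRBM10#1, and 1 and 1 with shRBM10#2. Of 10 tested matrix glycoproteins and proteoglycans, 0 were higher and 2 lower with shRBM10#1, and 0 and 4 with shRBM10#2. NID2, which links laminin to collagen IV, fell with both (log2 FC -1.69 ± 0.25, FDR 0.000824, and log2 FC -1.30 ± 0.24, FDR 0.00252). The heparan sulfate proteoglycans of the basement membrane HSPG2 (perlecan) and AGRN (agrin) fell with shRBM10#2, with HSPG2 at 60.9 and 69.05 CPM in the shScr libraries, at 63.5 and 53.7 under shRBM10#1 and at 32.9 and 27.9 under shRBM10#2. AGRN was at 792 and 797 CPM in the shScr libraries, at 863 and 786 under shRBM10#1 and at 482 and 483 under shRBM10#2, and both differed between the shRNAs (HSPG2 log2 FC -0.95 ± 0.10, FDR 0.000135, and AGRN log2 FC -0.77 ± 0.066, FDR 4.40e-05). THBS1 fell with shRBM10#1 (log2 FC -0.41 ± 0.12, FDR 0.0426) and shRBM10#2 (log2 FC -0.72 ± 0.12, FDR 0.00176).

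Of 16 tested genes of collagen processing and crosslinking, 1 was higher and 2 lower with shRBM10#1, and 1 and 4 with shRBM10#2. P4HA3, a prolyl hydroxylase subunit, was scarce and rose with both (0.277 and 0.516 CPM in the shScr libraries, at 1.22 and 1.33 under shRBM10#1 and at 0.808 and 0.9397 under shRBM10#2). Its values were log2 FC 1.67 ± 0.38, FDR 0.0104 and log2 FC 1.13 ± 0.39, FDR 0.0484. Of 14 tested proteases and inhibitors, 3 were higher and 3 lower with shRBM10#1, and 2 and 4 with shRBM10#2. PLAU, the urokinase that starts plasmin formation, fell with shRBM10#1 (log2 FC -1.03 ± 0.084, FDR 1.45e-05) and less with shRBM10#2 (log2 FC -0.40 ± 0.081, FDR 0.0039), and the shRNAs differed (log2 FC 0.63 ± 0.084, FDR 0.000426). MMP9, a gelatinase, rose with shRBM10#1 (log2 FC 0.78 ± 0.22, FDR 0.0312), with log2 FC 0.46 ± 0.22, FDR 0.151 for shRBM10#2. These genes were not tested under the alternatives used for the members.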

How the data were processed

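RNA-Seq of 6 PC-9 libraries, grouped by the shRNA in the labels, was analyzed. The authors deposited RSEM isoform tables with the expected count, which splits shared reads and need not be whole, TPM, FPKM (not used) and the percent of the gene, per the file headers. The submitters' processing notes name STAR 2.4, RSEM 1.2.29, edgeR and hg19, and strand use is not given in the sources used here. Expected counts were summed per gene, rounded, and tested with edgeR 4.0.16 in R 4.3.3 (TMM, filterByExpr by condition, glmQLFit and glmQLFTest, 1 coefficient per condition over the 6 libraries, or 1 RBM10 KD group). Usage was tested with diffSpliceDGE (Simes p). DESeq2 1.42.0 and limma 3.58.1 gave alternatives. Figures were drawn with matplotlib 3.10.9 in Python 3.11.15. Tests were two-sided. The edgeR tests of gene totals, isoforms and usage were also run on simulated data, for shRBM10#2 against shScr only.

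Members and lists were chosen with earlier results of these data known. The named members were ITGB1, ITGB4, LAMA3, LAMB3, the highest of each role, up to 12 called by size per comparison, and those with usage calls or the smallest usage p. COL1A1, COL4A1, COL4A5, ITGA5, ITGB6 and LAMB1 (called) and a few others were named after their values were seen. Up to 8 listed pathway genes per shRNA were named by size, and RBM10 as the target. Some genes that meet these rules are not reported here; they count in the totals of calls, except 1 integrin gene that is not a member. Sequences are from RefSeq (GRCh38.p14) and GENCODE 29 (GRCh38), without conversion from hg19. The replicate numbers did not pair libraries. Each library total was at least 31953729 expected counts, and intervals that rest on counts cover counting error only.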

Additional observations from a re-analysis of the deposited data

Results flagged for a closer look

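The log2 FC against shScr differed between the 2 shRNAs in the following members by the test of shRBM10#2 against shRBM10#1 (edgeR's quasi-likelihood test, Benjamini-Hochberg adjusted over all genes). The difference was positive, with the higher level under shRBM10#2, for COL13A1 (0.917, FDR 0.029), COL4A5 (0.2767, FDR 0.0097), ITGA2 (0.2508, FDR 0.0399), ITGAE (0.9272, FDR 0.00157) and ITGB8 (0.9868, FDR 0.000524). It was negative for COL18A1 (-0.2818, FDR 0.00756), COL7A1 (-0.329, FDR 0.0194), COL9A3 (-0.8258, FDR 0.000483), ITGA3 (-0.3199, FDR 0.00547), ITGB2 (-0.6997, FDR 0.0201), ITGB5 (-0.4167, FDR 0.000885), LAMA5 (-0.3815, FDR 0.00314), LAMB3 (-0.3576, FDR 0.00163) and LAMC1 (-0.3525, FDR 0.00816). RBM10 was also lower under shRBM10#2, and whether its level or another property of the shRNAs goes with these differences cannot be told apart with 1 shRNA at each level.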

How the results depend on the processing

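Of 57 called results of the 34 named members, all kept their direction in the 798 alternatives run, 125 of which missed the threshold, and 25 passed in every one. The libraries whose loss ended calls are named in the report. A fit that left 1 library in a condition assumed that it varies like the others. The pooled count of 6 (of 230 genes called among 14217) became 10 with DESeq2 (718 of 14216 genes) and 21 as the mean of both coefficients (2610 of 14217). It became 1 with an absolute log2 FC above 1 (56 of 14217 genes). With the replicate block it was also 1, without (52 of 14217 genes) or with (47 of 14217) an effective length offset. That fold criterion left 3, 1 and 0 members of 20, 20 and 15 with shRBM10#1, with shRBM10#2 and between the shRNAs. Of all 14217 genes it left 267, 185 and 169. Leaving out 1 library gave 0 to 8 pooled calls, 12 to 20 with shRBM10#1 (12 without shScr replicate 2), 11 to 23 with shRBM10#2 (11 without its replicate 1), 6 to 15 between the shRNAs, 0 to 1 usage calls in each comparison and 0 isoforms. Isoform calls (0 in each) rose with DESeq2 to 3 with shRBM10#1, 4 with shRBM10#2 and 4 pooled, with at least 10 counts in every library to 1 and 4 with the 2 shRNAs, and by the FDR alone to 4 with shRBM10#2 and 2 between the shRNAs. Same-numbered libraries did not deviate together (r = -0.00383, -0.0193 and -0.0136 over genes), so the numbers do not pair them. With the replicate block the counts were 19, 18 and 13 members, against 1755, 3209 and 3175 of 14217 genes. There were 2 usage calls with shRBM10#2 (LAMB3 and ITGB4), of 83 called among 6405 genes. The ITGB4 call is for the gene as a whole, and the isoform behind it was not examined. Uncalled values near 0 changed sign: COL5A1 between the shRNAs in DESeq2 (-0.0002328), COL6A1 there with at least 10 counts (0.001384) or no filter (0.00152), and ITGAV pooled with the block (0.0004117). Without 1 library the uncalled log2 FC ranged as follows. Between the shRNAs these were COL17A1 -1.099 to 0.1487, COL4A1 -0.1273 to 0.2223, COL4A2 -0.2259 to 0.1692, COL5A1 -0.222 to 0.2531, COL6A1 -0.02299 to 0.01487, ITGA5 -0.02509 to 0.158, ITGB6 -0.1135 to 0.1341, LAMA3 -0.05063 to 0.2537 and LAMB1 -0.206 to 0.0449. With shRBM10#1 these were COL7A1 -0.1266 to 0.1495, ITGAV -0.05421 to 0.1643 and LAMC1 -0.2523 to 0.01526. With shRBM10#2 these were COL9A3 -0.02404 to 0.1377, ITGAV -0.1611 to 0.05753 and ITGB2 -0.08692 to 0.1211. In the pooled comparison these were ITGAV -0.1066 to 0.1119 and ITGB1 -0.04691 to 0.01156. The cause of these shifts was not tested. With 2 libraries per condition, an exact permutation test could not go below p = 0.333.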
